A study of Homo sapiens with 6 samples.

Results

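The route from acetaldehyde through acetate to acetyl-CoA was followed at the RNA level in A375 cells, an established human melanoma line, sorted by their aldehyde dehydrogenase (ALDH) activity. It was represented by 9 genes, picked by name: ALDH1A3, ALDH2, ALDH1B1, ADH5, ACSS1, ACSS2, ACSS3, ACLY and SLC25A1. Each name matched 1 of the 57914 genes in the deposited tables, and all 9 were abundant enough to be tested. Aldefluor served as the activity stain, a dye retained as a fluorescent product once ALDH enzymes oxidise it, and the labels name no further treatment. The ALDH_High group held 3 libraries from the 5% of cells with the strongest signal, and the ALDH_Low group 3 libraries from the 5% with the weakest. The comparison asks how transcriptional states differ between cells of high and low ALDH activity. All cells came from 1 line, and the labels do not say whether the libraries of a group came from separate cultures, so the p-values measure only the spread between these libraries. The sort read enzyme activity and not RNA. ALDH1A3, ALDH2 and ALDH1B1 encode ALDH enzymes, so their RNA cannot be taken as independent of the property sorted on. How much each contributed to the signal was not tested.

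Aldehyde dehydrogenases oxidise reactive aldehydes to carboxylic acids, acetaldehyde to acetate among them. Acetate becomes acetyl-CoA through the acyl-CoA synthetases of the ACSS family, at the cost of ATP. The other main source of cytosolic acetyl-CoA is citrate, which SLC25A1 carries out of mitochondria and ACLY cleaves. Acetyl-CoA feeds fatty acid and sterol synthesis and is the acetyl donor for histone acetylation.

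Among the 9 genes, ALDH1A3 rose in ALDH_High cells, by 2.5-fold, and none fell. The 3 synthetases ACSS1, ACSS2 and ACSS3, of which ACSS3 prefers propionate to acetate, had higher means in ALDH_High. Their fitted folds of 1.73, 1.33 and 1.63 did not pass the test. With the replicate number as a block, ACSS1 passed (log2 fold change 0.79, edgeR adjusted p 0.0120) and ACSS2 and ACSS3 did not. That fit is an alternative, and the labels do not say what the replicate number marks. The other 5 genes, which include both mitochondrial acetaldehyde enzymes and the citrate branch, had fitted folds between 0.901 and 1.06. So 1 of 9 genes (11.1%) passed an adjusted p of 0.05 in edgeR's quasi-likelihood test with Benjamini-Hochberg adjustment, beside 20.6% of all 17047 genes tested. At an unadjusted edgeR p below 0.05 there were 3 of the 9, ALDH1A3, ACSS1 and ACSS3, all higher. Over all genes tested, 32.3% had an unadjusted edgeR p below 0.05, in either direction. DESeq2 called 2 higher (ALDH1A3 and ACSS1) and limma 1, and both called 0 lower. The direction of the 1 call was higher, which held for 10.8% of all genes, and 9.83% of all genes were called lower. The median log2 fold change of the 9 was 0.084, beside -0.013 over all genes. The ALDH_High and ALDH_Low values did not overlap for 4 of the 9 (44.4%), beside 37.8% of all genes. Levels are given as CPM, counts scaled to a common library total, and the plot of CPM by library shows all values.

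**Figure D1:**
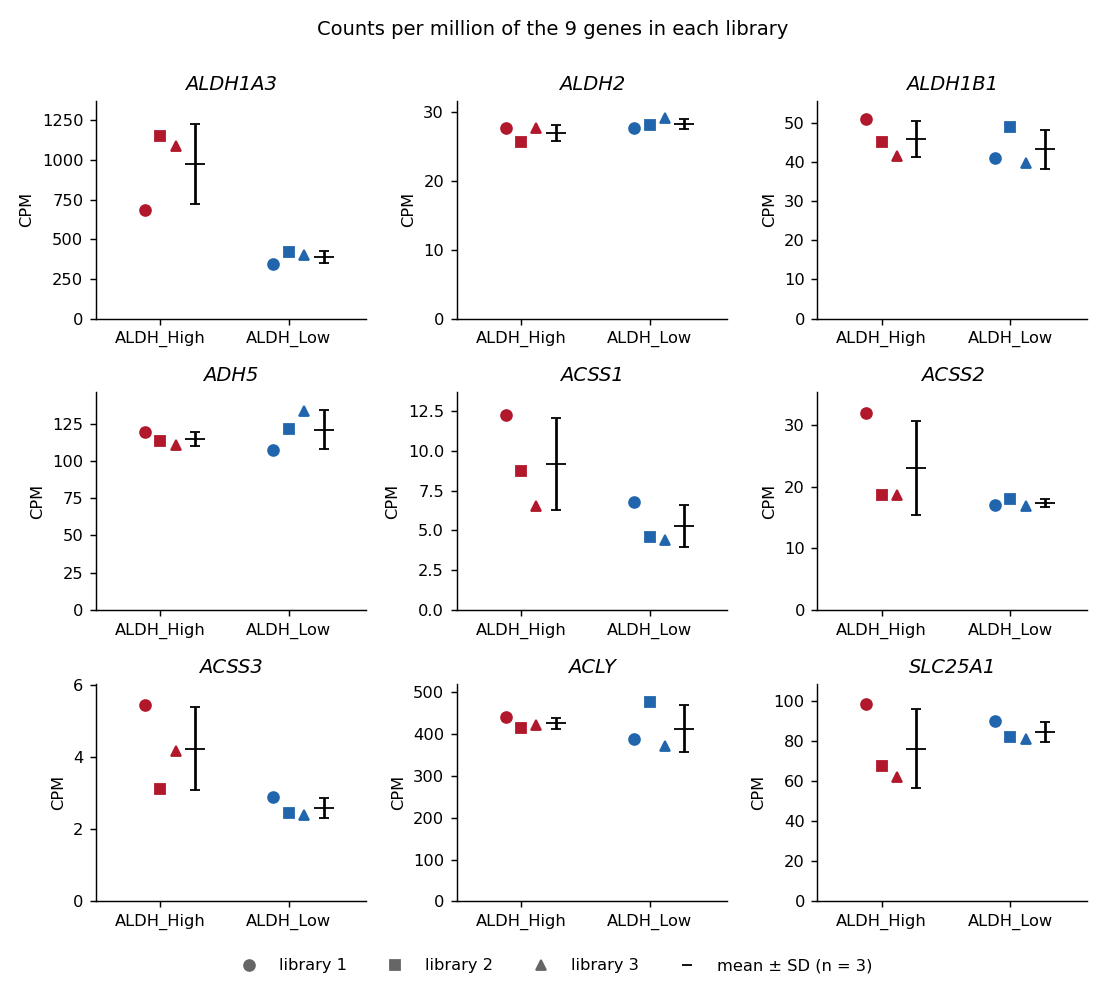
CPM (vertical axis, from 0, scaled per gene) of the 9 genes in each of the 3 ALDH_High (red) and 3 ALDH_Low (blue) libraries, with the mean and SD (n = 3) in black. For ALDH1A3 the ALDH_High libraries lie between 683 and 1149 CPM and the ALDH_Low libraries between 345 and 420 CPM; for the other genes the groups lie closer together.

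Total counts per library lay between 26692868 and 37830603. ALDH_High library 1 stood apart from the other 2 ALDH_High libraries on the second principal component of log2 CPM (13.85% of the variance). Of the 10 melanocyte lineage markers looked at, SOX10, S100B, S100A1 and PRAME had higher mean CPM in ALDH_High and MITF had a lower one, while PMEL, MLANA, TYR, TYRP1 and DCT, which define pigmented cells, had at most 19 counts in any library. The summed CPM of the 10 was 807 to 1088.5 in ALDH_High and 328 to 358 in ALDH_Low. The 8 white blood cell markers summed to 14.2 to 29.5 CPM in ALDH_High and 58.4 to 69.9 in ALDH_Low, mostly CD68, while CD2 and MS4A1 were at 0 and PTPRC had at most 4 counts. The 4 epithelial markers summed to 30.6 to 75.5 and 143 to 292 CPM, almost all of it KRT8. The 4 endothelial markers summed to 11.3 to 13.7 and 2.07 to 2.74 CPM, mostly KDR in ALDH_High, and the 4 fibroblast markers to 9.58 to 11.4 and 7.01 to 10.1 CPM. Mitochondrially encoded genes took 1.31% to 1.66% of the counts in ALDH_High and 2.00% to 3.06% in ALDH_Low. The part of these markers and shares in the results was not tested. In such bulk RNA, fewer cells expressing a gene and less RNA per cell cannot be told apart.

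ALDH1A3 (ENSG00000184254), a cytosolic enzyme best known for making retinoic acid from retinal, lies on chromosome 15 (100877714 to 100916626, plus strand, GRCh38, 13 exons in the GENCODE canonical transcript). In the order of library number it had 683, 1149 and 1088 CPM in ALDH_High, against 345, 420 and 403 in ALDH_Low. Every ALDH_High library lay above every ALDH_Low library, and ALDH_High library 1 was the lowest of its group. The means were 973 ± 253 and 389 ± 39.4 CPM (SD, n = 3 each), a log2 fold change of 1.32 with a 95% interval from 0.91 to 1.73 (edgeR adjusted p 0.000734). This is a fold between 1.88 and 3.33. An exact two-sided permutation test on log2 CPM gave p = 0.1, the smallest that 3 against 3 libraries allow. The antisense gene ALDH1A3-AS1 overlaps ALDH1A3 from position 100892343 to past its end and had 1.79 to 3.08 CPM. Whether strand was used in counting is not given in the sources used here.

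The promoter of ALDH1A3, as the member that rose, is shown with those of the synthetases ACSS1 and ACSS2 (log2 fold changes 0.79 and 0.41, not called). Each sequence is the 250 bases before the RefSeq transcription start nearest to the GENCODE canonical start, 5′ to 3′ on the gene's strand (RefSeq, GRCh38.p14). Capitals mark matches on either strand to GGGCGG (the GC box) and CCAAT (the CCAAT box), and neighbouring matches can overlap. The windows are chr15:100879581-100879830 (plus strand), chr20:25058140-25058389 (minus strand) and chr20:34876362-34876611 (plus strand).
ALDH1A3: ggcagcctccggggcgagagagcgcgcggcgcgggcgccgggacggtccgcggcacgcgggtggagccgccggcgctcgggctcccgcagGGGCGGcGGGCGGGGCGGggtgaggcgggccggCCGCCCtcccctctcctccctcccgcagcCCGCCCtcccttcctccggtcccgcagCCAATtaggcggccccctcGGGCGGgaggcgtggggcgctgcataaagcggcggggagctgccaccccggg
ACSS1: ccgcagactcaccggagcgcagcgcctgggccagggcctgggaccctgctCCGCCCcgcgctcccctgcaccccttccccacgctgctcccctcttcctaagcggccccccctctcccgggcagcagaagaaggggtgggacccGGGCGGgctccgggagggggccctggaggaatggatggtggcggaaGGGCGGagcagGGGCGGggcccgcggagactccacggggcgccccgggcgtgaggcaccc
ACSS2: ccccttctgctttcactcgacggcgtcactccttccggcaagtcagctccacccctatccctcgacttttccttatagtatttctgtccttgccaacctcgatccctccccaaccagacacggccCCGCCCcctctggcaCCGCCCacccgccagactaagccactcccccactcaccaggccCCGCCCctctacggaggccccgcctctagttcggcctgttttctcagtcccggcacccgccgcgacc

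The ALDH1A3 window was 82.4% G and C and held 6 GC boxes and 1 CCAAT box, the latter ending 66 bases before the start. The ACSS1 and ACSS2 windows held 4 and 3 GC boxes and no CCAAT box, at 77.2% and 64.8% G and C. Of 35116 such windows over all genes, 42.6% held a GC box and 32.0% a CCAAT box, and the median G and C content was 58.0%. None of the 3 windows held CACGTG (an E-box, in 6.34% of all windows), TATAAA (in 10.7%) or TCACNCCAC (a sterol regulatory element sequence, in 0.883%). RefSeq promoters were matched for 7 of the 9 genes, and ALDH2 and ACSS3 had no entry. The windows of ALDH1B1, ACLY and SLC25A1, which were not called, also held CCAAT boxes (1, 2 and 1). They held 2, 4 and 8 GC boxes, and the ADH5 window held 2 GC boxes and no CCAAT box. Neither box was therefore particular to ALDH1A3.

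ALDH2 (ENSG00000111275), the mitochondrial enzyme that clears most acetaldehyde made from ethanol, lies on chromosome 12 (111766887 to 111817532). It had 27.7, 25.6 and 27.6 CPM in ALDH_High against 27.7, 28.2 and 29.1 in ALDH_Low, in library order. Its groups touched without overlapping in CPM and did overlap in TPM, a unit corrected for transcript length (18.7 to 21.1 against 19.7 to 20.2). The log2 fold change was -0.070 with a 95% interval from -0.32 to 0.18 (edgeR adjusted p 0.726), so the data allow a fold between 0.799 and 1.14. Another protein-coding gene model on the same strand, ENSG00000257767, overlaps ALDH2 and had 0.176 to 5.88 CPM, so the split of reads between them is uncertain.

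ALDH1B1 (ENSG00000137124), a mitochondrial relative of ALDH2 that also accepts acetaldehyde, lies on chromosome 9 (38392702 to 38398661) and has 2 exons. It had 50.8, 45.1 and 41.5 CPM in ALDH_High against 40.9, 48.9 and 39.8 in ALDH_Low, and the groups overlapped. Its log2 fold change was 0.084 (95% interval -0.21 to 0.38, edgeR adjusted p 0.712).

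ADH5 (ENSG00000197894), the class III alcohol dehydrogenase, oxidises the glutathione adduct of formaldehyde and acts only weakly on ethanol; it lies on chromosome 4 (99070978 to 99088801, minus strand). It had 119.7, 113 and 111 CPM in ALDH_High against 107, 121 and 134 in ALDH_Low, with overlap. The log2 fold change of ADH5 was -0.075 (95% interval -0.33 to 0.18, edgeR adjusted p 0.705).

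The make-up of the aldehyde-oxidising step, among ALDH1A3, ALDH2 and ALDH1B1 only, was compared in TPM, where levels of different genes can be set side by side. Other aldehyde dehydrogenases are outside this sum. Of these, ALDH9A1 had mean CPM of 117 in ALDH_High and 116 in ALDH_Low, and ALDH5A1 10.2 and 9.99. In the same order, ALDH18A1 had 178 and 166, ALDH16A1 91.3 and 95.7, and ALDH7A1 73.0 and 75.5. ALDH3A2 had 58.7 and 71.4, and ALDH3B1 12.5 and 33.6. The shares below therefore depend on which genes are summed. ALDH1A3 took 87.3%, 92.7% and 92.4% of the summed TPM of ALDH1A3, ALDH2 and ALDH1B1 in ALDH_High, and 79.5%, 81.0% and 81.7% in ALDH_Low. The means were 90.8 ± 3.05% and 80.7 ± 1.16% (SD, n = 3 each), and all ALDH_High shares lay above all ALDH_Low shares. The sum of ALDH2 and ALDH1B1 was 41.0 ± 0.463 TPM in ALDH_High and 39.4 ± 3.01 TPM in ALDH_Low, a difference within the spread of the ALDH_Low libraries. The TPM of ALDH1A3 was 22.0 ± 6.31 times that of ALDH2 in ALDH_High and 8.32 ± 0.746 times in ALDH_Low.

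**Figure D2:**
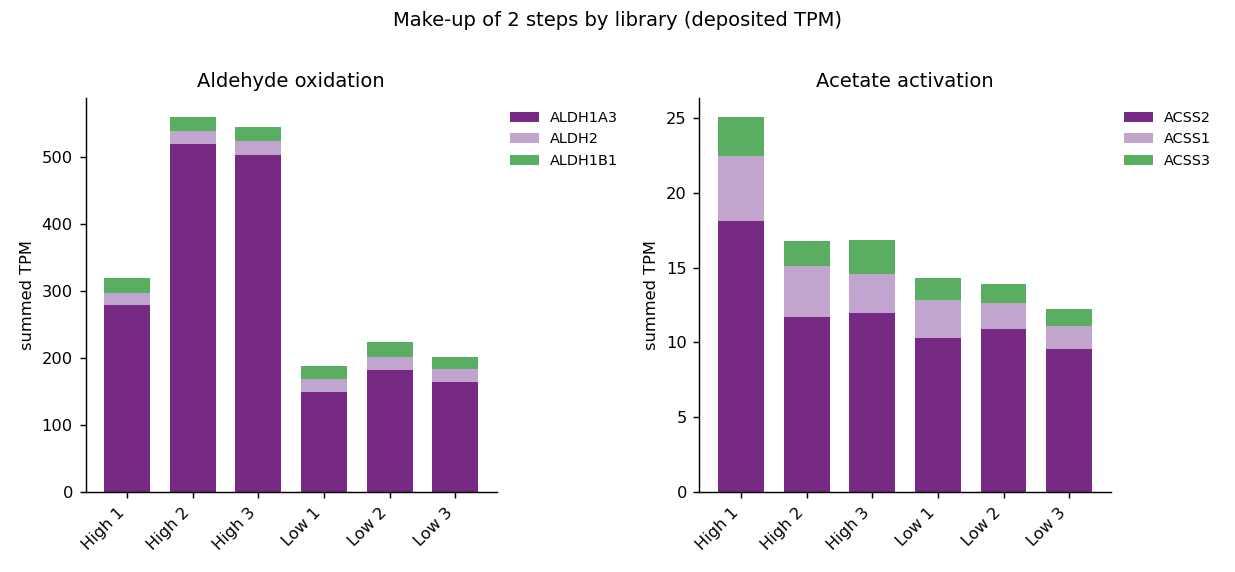
Summed deposited TPM (vertical axis, from 0) by library, stacked by gene. The left panel sums ALDH1A3, ALDH2 and ALDH1B1 (aldehyde oxidation) and the right panel ACSS1, ACSS2 and ACSS3 (titled acetate activation, though ACSS3 prefers propionate). ALDH1A3 fills most of every left bar, from 79.5% in ALDH_Low library 1 to 92.7% in ALDH_High library 2, and ACSS2 most of every right bar; ALDH_High library 1 has the smallest left bar and the largest right bar of its group.

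ACSS2 (ENSG00000131069), the nuclear and cytosolic synthetase that turns acetate into acetyl-CoA, lies on chromosome 20 (34872146 to 34927962, plus strand). It had 31.9, 18.6 and 18.6 CPM in ALDH_High against 17.1, 18.1 and 16.8 in ALDH_Low. The groups did not overlap, but ALDH_High libraries 2 and 3 lay close to the ALDH_Low range while library 1 lay well above it. The log2 fold change of ACSS2 was 0.41 (95% interval -0.054 to 0.87, edgeR adjusted p 0.210), and without ALDH_High library 1 it was 0.12 (edgeR adjusted p 0.519). GGT7, on the opposite strand, overlaps the start of ACSS2 and had 37.1 to 40.6 CPM in ALDH_High and 18.1 to 22.9 in ALDH_Low.

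ACSS1 (ENSG00000154930), the mitochondrial acetyl-CoA synthetase, lies on the same chromosome (25006230 to 25058980, minus strand). It had 12.3, 8.74 and 6.54 CPM in ALDH_High against 6.80, 4.62 and 4.39 in ALDH_Low. The groups overlapped by 1 pair, ALDH_High library 3 lying below ALDH_Low library 1. The means of ACSS1 were 9.18 ± 2.89 and 5.27 ± 1.33 CPM (SD, n = 3 each), a log2 fold change of 0.79 (95% interval 0.20 to 1.39, edgeR adjusted p 0.0637). Within each library number the ALDH_High value was the higher one. Besides the replicate block (edgeR adjusted p 0.0120), ACSS1 passed with the DESeq2 Wald test (adjusted p 0.0196), when low-count genes were kept in (edgeR adjusted p 0.00676), without ALDH_High library 3 (1.0, edgeR adjusted p 0.0313) and without ALDH_Low library 1 (1.04, edgeR adjusted p 0.0413). Over 15 alternatives the adjusted p reached 0.244.

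ACSS3 (ENSG00000111058), a mitochondrial synthetase that prefers propionate to acetate, lies on chromosome 12 (80936414 to 81261210). It had 5.44, 3.13 and 4.16 CPM in ALDH_High against 2.90, 2.44 and 2.41 in ALDH_Low, with every ALDH_High library above every ALDH_Low library. The log2 fold change was 0.71 (95% interval 0.12 to 1.29, edgeR adjusted p 0.0877). On the opposite strand LIN7A overlaps the start of ACSS3, with 1.06 CPM in ALDH_High library 1 and at most 0.285 in the others. PPFIA2 overlaps its end, with 0.205 to 0.592 CPM in ALDH_High and 0.804 to 1.15 in ALDH_Low. ACSS3 was the least abundant of the 9, with 67 counts in ALDH_Low library 3, for which an exact Poisson interval at 95% runs from 51.9 to 85.1; such intervals cover counting error only.

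Both chromosome 20 genes stood on a raised background. The median log2 fold change of the 437 genes tested on chromosome 20 was 0.25, with 74.6% of them above 0. Of the other 22 chromosomes, chromosomes 13 and 18 had medians of 0.33 and -0.33, and the rest lay between -0.056 and 0.016. Relative to that median, the log2 fold change was 0.54 for ACSS1 and 0.15 for ACSS2. That of ACSS3 was 0.76 relative to chromosome 12, and that of ALDH1A3 was 1.33 relative to chromosome 15. The share of the chromosome in these values was not tested. The plot of fold changes shows each gene beside the median of its chromosome.

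**Figure D3:**
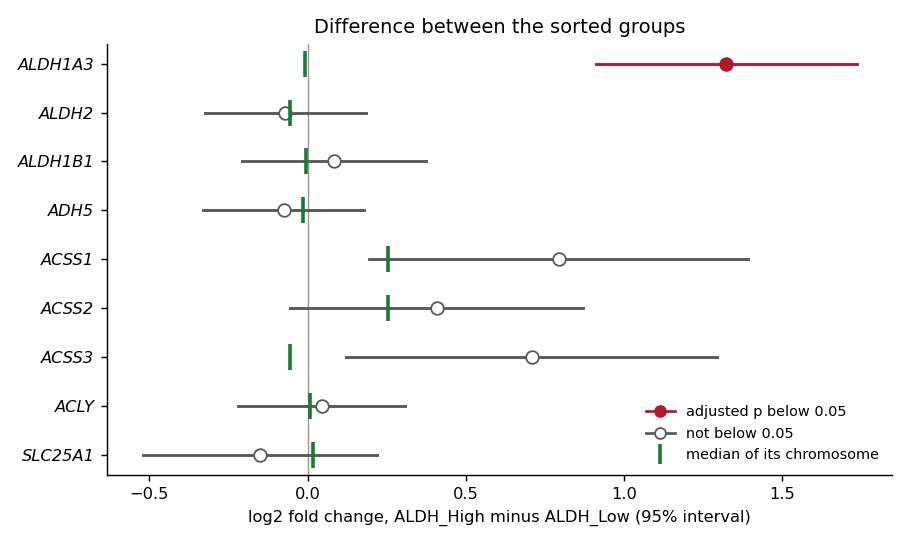
Fitted log2 fold change (horizontal axis, ALDH_High minus ALDH_Low) of the 9 genes with 95% intervals from edgeR; the filled red point passed an adjusted p of 0.05, and green ticks give the median of all genes tested on the same chromosome. ALDH1A3 at 1.32 is far from its chromosome's tick, whereas the tick of ACSS2 lies inside its interval.

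ACSS2 made up 72.3%, 69.7% and 71.1% of the summed TPM of the 3 synthetases in ALDH_High and 71.9%, 78.6% and 77.9% in ALDH_Low, so these ranges overlapped. The summed TPM itself was 25.04, 16.7 and 16.8 in ALDH_High and 14.3, 13.9 and 12.25 in ALDH_Low. All ALDH_High sums lay above all ALDH_Low sums, and ALDH_High library 1 was again the highest.

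ACLY (ENSG00000131473), the cytosolic lyase that splits citrate into acetyl-CoA and oxaloacetate, lies on chromosome 17 (41866917 to 41930542, minus strand). It had 441, 416 and 421 CPM in ALDH_High against 389, 477 and 373 in ALDH_Low, and the ALDH_High values lay inside the wider ALDH_Low range. The log2 fold change of ACLY was 0.045 with a 95% interval from -0.22 to 0.31 (edgeR adjusted p 0.840), and its sign was negative under upper-quartile scaling (-0.0035). The TPM of ACLY was 7.28, 11.8 and 11.9 times that of ACSS2 in ALDH_High and 11.99, 13.9 and 11.7 times in ALDH_Low, with overlap.

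SLC25A1 (ENSG00000100075), the mitochondrial citrate carrier, lies on chromosome 22 (19175581 to 19178739, minus strand). It had 98.6, 67.8 and 62.1 CPM in ALDH_High against 90.2, 82.1 and 81.1 in ALDH_Low. ALDH_High library 1 was the highest of all 6 and the other 2 the lowest, so the groups overlapped. The log2 fold change was -0.15 (95% interval -0.52 to 0.22, edgeR adjusted p 0.592). Without ALDH_High library 1 SLC25A1 was called lower, at -0.36 (edgeR adjusted p 0.0338).

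Within ALDH_High and in CPM, library 1 had the lowest ALDH1A3 of the 3 libraries and the highest value of each of the other 8 genes. In TPM it was also the highest for ALDH1B1, ACSS1, ACSS2, ACSS3 and SLC25A1, but the lowest for ALDH2, ADH5 and ACLY. 

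By level, the order of the 9 genes in ALDH_High was ALDH1A3, ACLY, ADH5, SLC25A1, ALDH1B1, ALDH2, ACSS2, ACSS1 and ACSS3, from 434 ± 135 TPM to 2.19 ± 0.485 TPM (SD, n = 3 each). Neighbours whose libraries overlapped there were ALDH1B1 with ALDH2 and ACSS1 with ACSS3. In ALDH_Low the order was the same except that ALDH2 stood before ALDH1B1, from 166 ± 16.4 TPM to 1.30 ± 0.171 TPM. There ALDH1A3 overlapped ACLY, whose 3 libraries reached 152 TPM, and ACLY overlapped ADH5. In ALDH_High, by contrast, the lowest ALDH1A3 value was 279 TPM and the highest ACLY value 143 TPM.

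In the authors' deposited table, where a high and a low group are each set against a group named 1A3 whose libraries were not analysed here, the log2 coefficient of ALDH1A3 for the high group exceeds that for the low group by 1.34. In the authors' deposited table the same difference is 0.82 for ACSS1, 0.43 for ACSS2 and 0.73 for ACSS3. For the remaining 5 genes the authors' deposited table gives differences between -0.13 (SLC25A1) and 0.10 (ALDH1B1).

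The genes whose CPM pattern over the 6 libraries lay nearest to that of ALDH1A3 were NTM, COBL, TOP2A, AC037459.3 and SERTAD4. The measure was the root mean square difference of centred log2 CPM, and its median over 11029 genes of at least 5 mean CPM was 0.709. The 8 other genes of the route lay between 0.575 (ACSS3) and 0.865 (SLC25A1) from ALDH1A3. NTM, a cell adhesion molecule of neurons, was at 0.0679, COBL, which promotes actin assembly, at 0.13, and TOP2A, the DNA topoisomerase of dividing cells, at 0.136. SERTAD4 was at 0.147 and AC037459.3, named antisense in the deposited table and therefore uncertain, at 0.137. The log2 fold changes of NTM, COBL, TOP2A and SERTAD4 were 1.19, 1.29, 1.19 and 1.37; they follow from the choice by likeness to ALDH1A3 in the same 6 libraries and are given as a description, with no test.

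Genes around the route were followed in 11 lists of 133 genes, of which 116 were tested. Of these, 10 were called higher and 7 lower (14.7%, beside 20.6% of all genes), and the median log2 fold change was 0.034. Without ALDH_Low library 2 or 3 the count of higher genes was 6, and without ALDH_High library 1 that of lower genes was 13. The plot of genes by list shows each value.

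**Figure D4:**
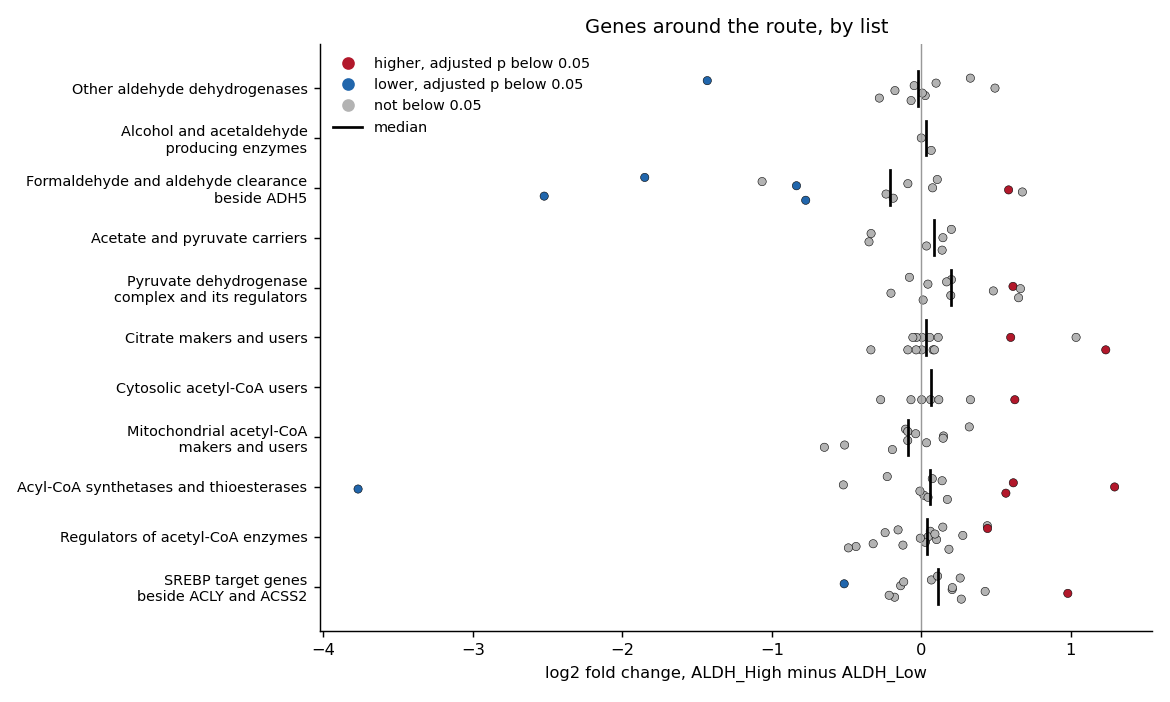
Log2 fold change (horizontal axis, ALDH_High minus ALDH_Low) of each tested gene in 11 lists (vertical axis); red and blue points passed an adjusted p of 0.05 as higher and lower, grey points did not, and black bars are list medians. The medians lie between -0.21 and 0.20, and the lowest point is ACSL5 at -3.77.

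Among the other aldehyde dehydrogenases, 10 of 16 were tested. At an unadjusted edgeR p below 0.05 there were 1 higher and 2 lower. After adjustment 0 were called higher and 1 lower in edgeR, DESeq2 and limma alike (10.0% in edgeR, beside 20.6% of all genes). The lower gene was ALDH3B1, which oxidises medium- and long-chain aldehydes, with 12.5 ± 1.38 CPM in ALDH_High against 33.6 ± 3.27 in ALDH_Low (SD, n = 3 each; log2 fold change -1.43, edgeR adjusted p 8.87e-05). ALDH4A1 (0.49) and ALDH3A2 (-0.28) came next by p and did not pass (edgeR adjusted p 0.115 and 0.118), though ALDH4A1 did with low-count genes kept in (0.50, edgeR adjusted p 0.0345). Of the enzymes that make acetaldehyde from ethanol, only CAT and CYP2E1 were abundant enough to be tested. Catalase (CAT) had 50.8 ± 5.57 and 48.5 ± 4.36 CPM (0.066, edgeR adjusted p 0.772), and the cytochrome CYP2E1 3.02 ± 1.91 and 3.01 ± 0.932 CPM (edgeR adjusted p 0.999). ADH1A, ADH1B, ADH1C, ADH4, ADH6 and ADH7, the other alcohol dehydrogenases, had at most 6 counts in any library.

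Of 12 carbonyl-clearing enzymes beside ADH5, 4 were called lower and 1 higher (41.7%, beside 20.6% of all genes), with a median log2 fold change of -0.21. AKR1B1, the aldose reductase, had 158 ± 24.3 CPM in ALDH_High against 282 ± 5.25 in ALDH_Low (log2 fold change -0.84, edgeR adjusted p 0.00108). AKR1A1, an aldehyde reductase, fell by 0.77 and AKR1C3, a ketosteroid reductase, by 1.85 on the log2 scale (edgeR adjusted p 0.00185 and 0.00392). AKR1B10, a retinal reductase, was low throughout, at 0.163 ± 0.132 and 0.900 ± 0.183 CPM (log2 fold change -2.52, edgeR adjusted p 0.00721). Its libraries had at most 0.316 CPM in ALDH_High and at least 0.703 in ALDH_Low, so it was kept for testing through ALDH_Low. Only 12 of the 15 alternative analyses kept AKR1B10. Its call, 1 of the 4, is therefore given as a description only. GSTA4, a glutathione transferase for lipid aldehydes, was higher (0.58, edgeR adjusted p 0.0400); GSTA4 kept its call only without ALDH_High library 1 when single libraries were left out, and lost it with upper-quartile factors and with low-count genes kept in (edgeR adjusted p 0.0589 each). The AKR1C genes, and likewise the AKR1B genes, are close copies, so the split of reads among them is uncertain. AKR1C2 went the other way from AKR1C3 without passing (log2 fold change 0.68, edgeR adjusted p 0.169). It had 15.1 ± 6.82 CPM in ALDH_High against 9.44 ± 2.75 in ALDH_Low. The other list members did not pass.

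Of the 6 acetate and pyruvate carriers, 0 passed in edgeR, DESeq2 or limma, and 1 had an unadjusted edgeR p below 0.05. MPC2, a mitochondrial pyruvate carrier subunit, came nearest (-0.35, edgeR adjusted p 0.111), and the monocarboxylate carriers SLC16A1 and SLC16A3 were at 0.14 and -0.34 (edgeR adjusted p 0.468 and 0.290). In the pyruvate dehydrogenase list, which makes mitochondrial acetyl-CoA from pyruvate, 1 of 11 was called (9.09%, beside 20.6% of all genes). This was PDHX, a structural subunit, with 54.3 ± 8.03 CPM in ALDH_High against 35.5 ± 2.27 in ALDH_Low (0.61, edgeR adjusted p 0.00959). PDK3, an inhibitory kinase of the complex, was at 0.66 (edgeR adjusted p 0.0533) and passed with the replicate number as a block (edgeR adjusted p 0.0226) and in 4 other alternatives. PDP2, an activating phosphatase, was at 0.48 (edgeR adjusted p 0.203) and passed with low-count genes kept in (edgeR adjusted p 0.0206).

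Of 14 citrate makers and users, 2 were called higher and 0 lower in edgeR, DESeq2 and limma (14.3% in edgeR, beside 20.6% of all genes). At an unadjusted edgeR p below 0.05, 0 were lower as well. IDH2, the mitochondrial NADP-dependent isocitrate dehydrogenase, had 38.1 ± 4.94 CPM in ALDH_High against 16.2 ± 1.56 in ALDH_Low (1.23, edgeR adjusted p 0.000226). IDH1, its cytosolic counterpart, rose by 0.60 on the log2 scale (edgeR adjusted p 0.0333), a call lost without ALDH_Low library 1, 2 or 3. ACO1, the cytosolic aconitase, was at -0.34 (edgeR adjusted p 0.254). Of 7 tested cytosolic users of acetyl-CoA, 1 was called (14.3%, beside 20.6% of all genes). This was NAT8L, which makes N-acetylaspartate and rose (0.62, edgeR adjusted p 0.00348). FASN, the fatty acid synthase, was at 0.33 and ACACB, an acetyl-CoA carboxylase, at -0.27 (edgeR adjusted p 0.0758 and 0.304). Among 11 tested genes listed as mitochondrial makers and users of acetyl-CoA, 0 passed in edgeR or limma and 1 in DESeq2, with 2 at an unadjusted edgeR p below 0.05. CROT and ACAA2, enzymes of fatty acid breakdown, were at -0.51 and -0.19 (edgeR adjusted p 0.0714 and 0.307). CROT passed with upper-quartile factors (edgeR adjusted p 0.0498). It is a peroxisomal enzyme, so the name of the list does not hold for it.

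Of 12 tested acyl-CoA synthetases and thioesterases of other chain lengths, 3 were called higher and 1 lower (33.3%, beside 20.6% of all genes). ACSL5, a long-chain synthetase, had 0.653 ± 0.266 CPM in ALDH_High against 8.76 ± 1.34 in ALDH_Low (SD, n = 3 each; -3.77, edgeR adjusted p 3.47e-05). ACSF2, a medium-chain synthetase, had 12.8 ± 0.455 and 5.22 ± 0.451 CPM (1.29, edgeR adjusted p 0.000405). ACSL3 rose by 0.57 and ACSL1 by 0.61 on the log2 scale (edgeR adjusted p 0.00382 and 0.0209), and ACSL1 kept its call only without ALDH_High library 1 when single libraries were left out. ACSL1 also missed the threshold in all 3 limma fits on TPM (limma adjusted p 0.0761 to 0.162).

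Of 18 tested regulators, 1 was called (5.56%, beside 20.6% of all genes). This was SREBF2, the transcription factor of sterol synthesis, with 107 ± 6.75 CPM in ALDH_High against 78.8 ± 7.73 in ALDH_Low (0.44, edgeR adjusted p 0.0218). The call of SREBF2 was lost without ALDH_High library 2 and without ALDH_Low library 2 or 3. UBR4, a ubiquitin ligase, and SIRT5, a mitochondrial deacylase, were at -0.32 and -0.49 (edgeR adjusted p 0.130 and 0.131), and both passed without ALDH_High library 1 (edgeR adjusted p 0.0221 and 0.0353). Of 13 genes known as targets of SREBP factors, to which ACLY and ACSS2 also belong, 1 was higher and 1 lower (15.4%, beside 20.6% of all genes). The lower gene was FADS2, a fatty acid desaturase, which fell by 0.52 on the log2 scale (edgeR adjusted p 0.0161). The call of FADS2 was lost without ALDH_High library 2 or 3 and without ALDH_Low library 2.

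ALDH1A3 was called higher in all 15 alternative analyses, at log2 fold changes between 1.20 and 1.54 (highest adjusted p 0.0364). ALDH2, ALDH1B1, ADH5, ACSS2, ACSS3 and ACLY were called in 0 of the 15, ACSS1 in 5 and SLC25A1 in 1. The log2 fold changes of ACSS1, ACSS2 and ACSS3 were above 0 in all 15, from 0.55 to 1.04, 0.12 to 0.56 and 0.46 to 0.90.

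**Figure D5:**
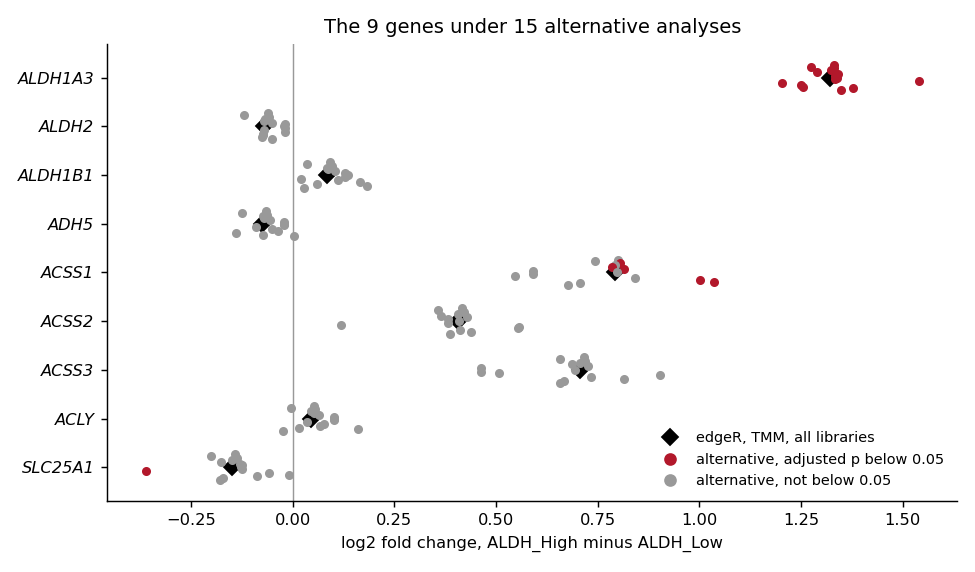
Log2 fold change (horizontal axis, ALDH_High minus ALDH_Low) of the 9 genes under 15 alternative analyses (circles, red where the adjusted p was below 0.05) and in edgeR with TMM scaling and all 6 libraries (black diamonds). All circles of ALDH1A3 are red and lie between 1.20 and 1.54, and those of ACSS1 are red in 5 cases.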

How the data were processed

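RNA was sequenced from stranded mRNA libraries (TruSeq), per the labels' protocols. The submitters' processing notes list FastQC 0.11.3, STAR 2.5.1b, HTSeq 0.6.1, DESeq2 and the build GRCh38, with no role or order. The authors deposited estimated counts rounded to whole numbers, as read from the values: in each library 133 to 177 genes had a count of 0 beside a TPM above 0. The authors also deposited TPM, with lengths that are not stated, and, per the file headers, log2 coefficients of a model of 5 groups.

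The 9 genes, the lists and the rule for named genes (all 9, the 3 smallest p per list, the 5 patterns nearest to ALDH1A3) were chosen with earlier results of these data known. AKR1B10, GSTA4, ACSL1, AKR1C2, ALDH9A1, ALDH5A1, ALDH7A1, ALDH16A1 and ALDH18A1 were named after their values were seen. Details on 3 list genes are not reported here. Genes kept by filterByExpr (17047) were scaled with TMM and tested with edgeR 4.0.16 (quasi-likelihood F-test, two-sided, no block, Benjamini-Hochberg over all genes). CPM use TMM-scaled library sizes. The 95% intervals rest on a standard error taken as the absolute log2 fold change over the root of F. Alternatives used DESeq2 1.42.0 and limma 3.58.1. The test was tried on simulated data. It called 56.7% of 97 genes given a log2 change of 1 and 93.8% of 97 given a log2 change of 2. Of 16478 genes given no change it called 0.085%. A gene that did not pass may therefore still differ.

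Deviations from the group mean on log2(CPM + 0.5) correlated between same-numbered libraries at 0.194, 0.132 and 0.106. A fit with the numbers as pairs is given as an alternative, and its values are printed where a call changed. The pairing is read from these same libraries, and the main test has no block. The labels name no shared culture or day, and with a prior count of 2 the second correlation was 0.076. Positions come from GENCODE 44 (GRCh38), matched for 99.1% of genes tested.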

Additional observations from a re-analysis of the deposited data

How the results depend on the processing

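Of the 9 genes, 2 were called higher, ACSS1 joining ALDH1A3, without a filter on low counts, with the replicate block and with the DESeq2 Wald test. In that order, these settings called 2378, 1947 and 2124 of all genes higher and 2088, 1801 and 1699 lower. The main fit called 1838 and 1675. Without the filter the edgeR adjusted p of ALDH1A3 was 2.67e-21, against 0.000734 in the main fit, at log2 fold changes of 1.33 and 1.32. Leaving out 1 library gave 1 to 2 higher genes (2 without ALDH_High replicate 3 or ALDH_Low replicate 1) and 0 to 1 lower (1, SLC25A1, without ALDH_High replicate 1). Over all genes, limma (pseudocount 1, all genes kept) gave 1155 higher and 851 lower genes against 1838 and 1675; limma with a mean TPM of at least 1 gave 1047 lower with pseudocount 1 and 1051 with 0.1, and an adjusted p below 0.01, stricter by construction, gave 1060 and 870. Leaving out 1 library gave 1306 to 2172 higher and 1073 to 2049 lower genes, fewest lower without ALDH_High replicate 2. In the lists together, limma without a TPM filter gave 6 higher genes against 10, and fits without 1 library gave 6 to 10 higher and 6 to 13 lower. The ALDH1A3 share in ALDH_Low was 84.4% in CPM in place of TPM. Signs turned for values near 0: ACLY was -0.0035 with upper-quartile factors and -0.025 to 0.16 without 1 library, ADH5 -0.14 to 0.0028 and CAT -0.011 to 0.15. CYP2E1 (-0.00068) was 0.0084 with DESeq2 size factors, 0.016 without a low-count filter, 0.024 with DESeq2, and -0.59 to 0.37 without 1 library. The cause was not tested. Relative to the chromosome median, chosen after seeing the data, no sign of the 9 turned. The replicate block changed the calls of ACSS1 and PDK3 and of no other gene of the route, of the lists or near ALDH1A3 that is named here. In limma without a TPM filter, PDHX, IDH1, SREBF2 and FADS2 missed the threshold (adjusted p 0.0825, 0.0886, 0.0890 and 0.0664). Among the 9 genes depth was lowest for ACSS3, with 67 counts in its lowest library, and among the called list genes AKR1B10 had at most 41 counts in any library.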
